A study of Sus scrofa with 79 samples.

Results

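The levels of 7 genes of lipid synthesis and storage were followed in the small intestine and blood of pigs: ACLY, ACACA, FASN and SCD of fatty acid synthesis, LPL of fat uptake, and the transcription factors SREBF1 and PPARG. They were chosen by name as genes with a known role in making or storing fat, and a probe was taken as theirs when the transcript accession on the array carried that symbol in the RefSeq gene table (assembly Sscrofa11.1). All 7 genes were on the array, among 36787 gene names, with 27 of its 43603 probes: 3 for ACLY (NCBI gene 100125957), 2 for ACACA (397324), 3 for FASN (397561), 9 for SCD (396670), 5 for LPL (397537), 2 for SREBF1 (397308) and 3 for PPARG (397671). Of all probes, 12.5% had such a symbol, in all 2389 genes. The study asked whether an antibiotic given in the first week of life, alone or with stressful handling, changes the intestine of the piglet. Suckling pigs of 16 sows were divided within the litter over 3 treatments. T1 pigs were left undisturbed, T2 pigs were injected under the skin with tulathromycin, a long-acting macrolide antibiotic, at 2.5 mg/kg on day 4, and T3 pigs received this injection and were docked, clipped and weighed as on the farm. Jejunum and ileum were sampled at 8, 55 and 176 days of age, and whole blood at 8 days. RNA of 4 piglets was pooled for each of 79 arrays, and the pool was the replicate, with 4 pools in a group of tissue, age and treatment or 3 where 1 pool was not analysed here. T1 pigs were handled only when blood was drawn on day 8. P-values measure the spread between pools, each of which already averages its piglets.

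Fat is made in the cytosol in a fixed order of steps. ACLY, ATP citrate lyase, cleaves citrate to acetyl-CoA. ACACA, acetyl-CoA carboxylase alpha, turns this into malonyl-CoA, and FASN, fatty acid synthase, builds palmitate from it. SCD, stearoyl-CoA desaturase, then puts a double bond into saturated fatty acids. LPL, lipoprotein lipase, works outside the cell, where it releases fatty acids from the triglycerides of chylomicrons and VLDL for uptake by the tissue. SREBF1 encodes the sterol regulatory element binding protein that drives many genes of fatty acid synthesis, and PPARG encodes a nuclear receptor best known for fat cell formation, which is also expressed in epithelium and macrophages. The enterocyte takes up dietary fat and rebuilds triglycerides for chylomicrons, so that these genes meet a large flow of fat in the small intestine.

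Levels are log2 values of the processed spot intensity after quantile normalization over all 67 intestine arrays, averaged over the probes of a gene. They can be compared between pools for 1 gene and not between genes. Calls needed both a fold above 1.5 and an adjusted p (limma, Benjamini-Hochberg over every gene tested) below 0.05, and rose and fell are used only for calls. Of an intestine array between 42.4% and 75.2% of the probes were well above background, and of a blood array between 34.8% and 44.1%. The array of jejunum day 176 T2 pool 8 stood most apart, with a median correlation of 0.821 with the other arrays of its tissue and day, where the next lowest of all was 0.93. Arrays of a group lay together on 1 of 11 slides, and no slide held intestine of more than 1 age, so that age and slide cannot be told apart. At day 55 jejunum and ileum shared no slide either. The enterocyte markers, of which 6 of 13 were measured, had a summed level between 17.5 and 20.22 in all intestine groups. Their median was lowest in ileum at day 176, at 17.95. The only measured marker of ileal enterocytes, FABP6, did not set the tissues apart. It ranged between 5.82 and 16.16 in jejunum and between 5.62 and 16.49 in ileum at day 8, and at day 176 its median in jejunum was 18.14 (lowest 7.52) and in ileum 18.48, so most pools labelled as jejunum carried a marker of the ileum at a level near that of ileum. Fewer cells of a type and less RNA per cell cannot be told apart in these tissue samples.

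Apart from blood, the largest differences were between ages. SCD and LPL rose between day 8 and day 55 in both tissues, by 5.62 to 7.27 fold, and fell from day 55 to day 176 without returning to the level of day 8. SREBF1 fell with age in both tissues, PPARG rose in jejunum at day 55 and in ileum only later, and ACLY and, in jejunum, ACACA were lowest at day 176. FASN differed little. Of the 42 tests of a gene in a comparison between ages, 26 were called, 13 higher and 13 lower, and all 7 genes had a call. The background was high: 4 of the 7 genes were called for day 55 against day 8 in jejunum, where 37% of all 31993 genes tested were called, and 4 of 7 in ileum, where 47.4% were. For day 176 against day 55 the calls were 4 of 7 in jejunum (37% of all genes) and 4 of 7 in ileum (28.6%), and for day 176 against day 8 they were 6 of 7 in jejunum (48.9%) and 4 of 7 in ileum (48.6%). Read against that background, the counts do not single these genes out. Pools of the ages did not overlap for 4 of the 7 genes for day 55 against day 8 in jejunum and for 2 in ileum, for 1 each for day 176 against day 55, and for 1 in jejunum and 2 in ileum for day 176 against day 8, where 13.1%, 14.6%, 5.12%, 4.63%, 16% and 14.7% of all genes did not overlap. Of all probes tested singly, 37.6%, 37.1% and 49.6% were called in jejunum for these comparisons in that order of ages (day 55 against 8, 176 against 55, 176 against 8) and 47.4%, 28.4% and 49.6% in ileum.

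**Figure D1:**
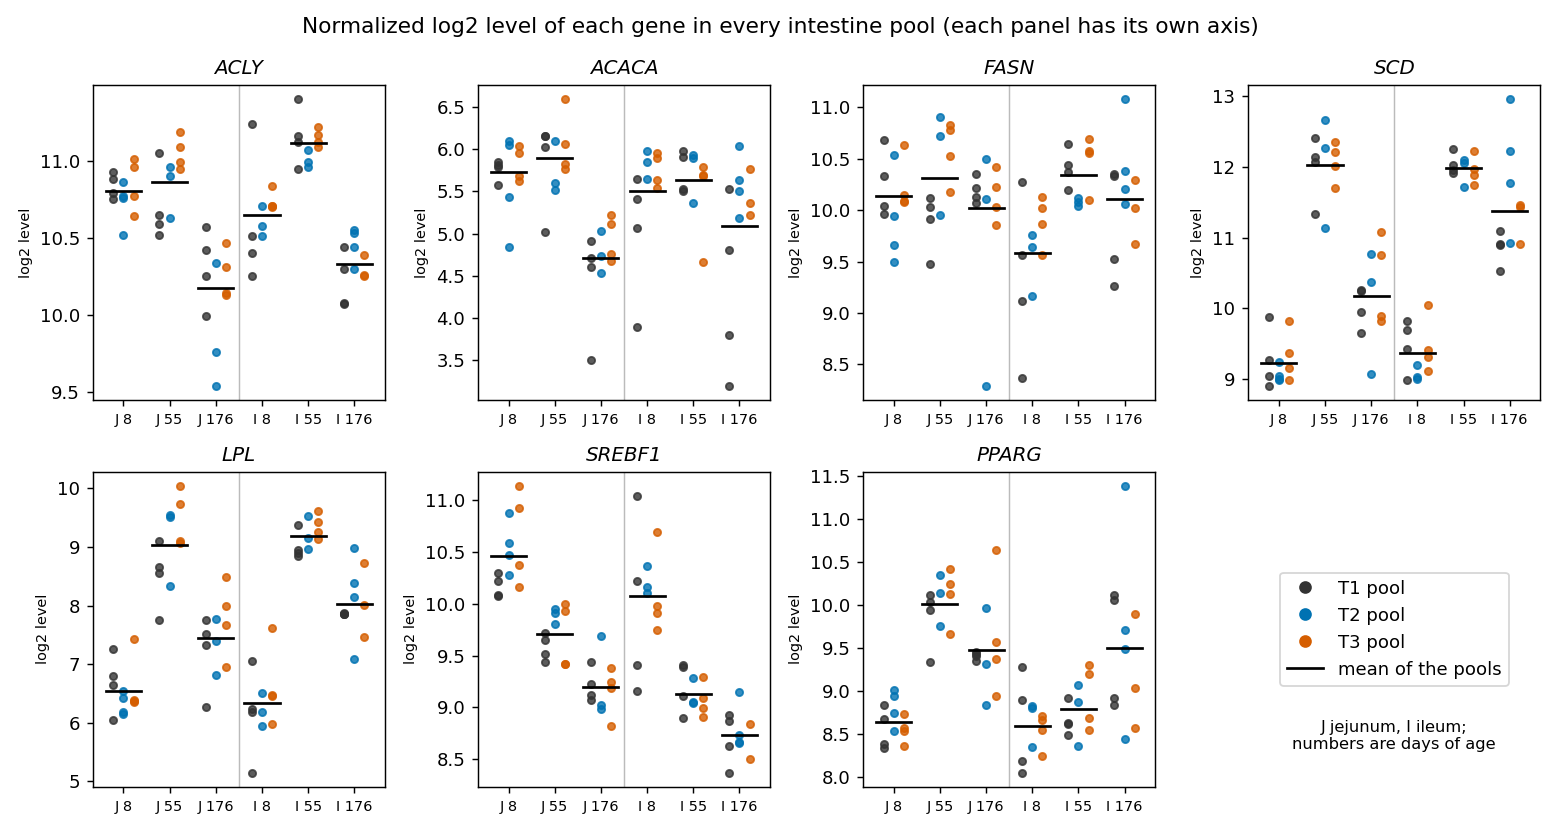
Normalized log2 level (vertical axis, each gene on its own scale) of the 7 genes in each pool of jejunum (J) and ileum (I) at 8, 55 and 176 days; points are pools coloured by treatment and bars are means over the pools. All SCD pools of day 55 lie between 11.14 and 12.67 and all of day 8 between 8.9 and 10.04.

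ACLY, at the first step, had its highest level in ileum at day 55. In jejunum its level was between 10.52 and 11.01 at day 8 (median 10.78, 12 pools), between 10.52 and 11.19 at day 55 (median 10.95, 11 pools) and between 9.54 and 10.57 at day 176 (median 10.25, 11 pools). In ileum it was between 10.25 and 11.24 (mean 10.65, 11 pools), between 10.95 and 11.4 (median 11.12, 11 pools) and between 10.07 and 10.55 (median 10.3, 11 pools). The ileum pools of days 55 and 176 did not overlap, as was so for 4.63% of all genes. ACLY fell from day 55 to day 176 in both tissues, by 0.71 (log2, SE 0.1, adjusted p = 1.77e-08, limma) in jejunum and by 0.78 (SE 0.1, adjusted p = 4.51e-09) in ileum. The difference between days 55 and 8 was 0.06 in jejunum (SE 0.09) and 0.46 in ileum (SE 0.1, adjusted p = 4.62e-05, a fold of 1.37 and so not called). All 3 probes fell in ileum, whereas in jejunum 1 of 3 was called, with values between −1.36 and −0.37, and with the brightest probe the jejunum difference was −0.37.

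ACACA, the rate-limiting step of fatty acid synthesis, gave a weak signal. Of the 2 ACACA probes the dimmer exceeded background clearly in 11 of 12 jejunum pools of day 8 and in 4 of 11 of day 176. In jejunum the gene's level was between 4.84 and 6.1 at day 8 (median 5.8), between 5.02 and 6.59 at day 55 (median 6.03) and between 3.51 and 5.22 at day 176 (median 4.74). It fell in jejunum by 1.17 (SE 0.21, adjusted p = 5.28e-06, limma) from day 55 and by 1.02 (SE 0.2, adjusted p = 1.91e-05) from day 8, and the median of day 176 lay below the lowest pool of either earlier age. This rested on the dimmer probe: with the brighter probe alone the differences were −0.4 and −0.26, and neither was called. In ileum the medians were 5.65, 5.69 and 5.36 and the pools overlapped at all ages. The ileum difference of day 176 from day 55 was −0.51 (SE 0.21, adjusted p = 0.0408), below the fold, and it was called without ileum day 176 T1 pool 9 (−0.65) or without ileum day 55 T3 pool 1 (−0.6).

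FASN, the last enzyme on the way to palmitate, was called between ages only for day 55 against day 8 in ileum. Its ileum level was between 8.37 and 10.27 at day 8 (median 9.64), between 10.04 and 10.69 at day 55 (median 10.37) and between 9.26 and 11.08 at day 176 (median 10.21). The rise at day 55 was 0.74 (SE 0.19, adjusted p = 0.000737, limma), and the difference of day 176 from day 8 was 0.52 (SE 0.19, adjusted p = 0.0174), which passed the fold without ileum day 8 T1 pool 12 (0.62). In jejunum the medians were 10.09, 10.18 and 10.13, the pools overlapped at all ages and no difference was called. The jejunum pool of T2 number 8 at day 176, the array that stood apart, held the lowest value of all FASN values at 8.29.

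The 3 probes of FASN did not move together, so that the flat mean in jejunum is an average of opposite changes. The dimmest probe, A_72_P175196, rose in jejunum by 1.12 (SE 0.18, adjusted p = 5.26e-07, limma over probes) from day 8 to day 176. A_72_P647699 fell over the same time by 1.04 (SE 0.24, adjusted p = 0.000175). The brightest, A_72_P223177, differed by −0.52 (SE 0.37, adjusted p = 0.223), with a jejunum range at day 176 of 7.93 to 14.94. In ileum at day 55 all 3 were above day 8, by 0.32 to 1.25, and 2 were called.

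SCD, which makes monounsaturated fatty acids, showed the clearest change of the enzymes. Its jejunum level was between 8.9 and 9.88 at day 8 (median 9.09), between 11.14 and 12.67 at day 55 (median 12.14) and between 9.07 and 11.08 at day 176 (median 10.24). Its ileum level was between 8.98 and 10.04 (median 9.31), between 11.71 and 12.26 (median 11.97) and between 10.53 and 12.96 (median 11.1). These means leave out 1 of the 9 probes, A_72_P558694, which was flagged on 1 array. Every pool of day 55 was above every pool of day 8 in both tissues, as were the ileum pools of day 176. SCD rose at day 55 by 2.81 (SE 0.19, adjusted p = 1.58e-18, limma) in jejunum, a fold of 7.01, and by 2.64 (SE 0.19, adjusted p = 2.36e-17) in ileum, a fold of 6.25. From day 55 to day 176 it fell by 1.87 (SE 0.19, adjusted p = 2.17e-11) in jejunum and by 0.62 (SE 0.19, adjusted p = 0.00902) in ileum. The latter call was lost without any of 3 ileum pools of day 176, T1 pool 10 (−0.58), T2 pool 7 (−0.5) and T3 pool 3 (−0.56). At day 176 it was still 0.94 (SE 0.19, adjusted p = 2.43e-05) above day 8 in jejunum and 2.03 (SE 0.19, adjusted p = 2.43e-13) in ileum. All 9 probes rose, with 9 of 9 called in each tissue and values between 1.88 and 3.17. The probe left out of the mean, A_72_P558694, was the only one that was lower in jejunum at day 176 than at day 8, and it was well above background there in 5 of 11 pools.

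LPL, the lipase of the vessel wall, followed the same course as SCD. Its jejunum level was between 6.04 and 7.43 at day 8 (median 6.41), between 7.76 and 10.04 at day 55 (median 9.1) and between 6.26 and 8.49 at day 176 (median 7.52). Its ileum level was between 5.15 and 7.62 (median 6.24), between 8.84 and 9.62 (median 9.15) and between 7.08 and 8.99 (median 7.88). The pools of days 8 and 55 did not overlap in either tissue, which held for 13.1% of all genes in jejunum and 14.6% in ileum. LPL rose at day 55 by 2.49 (SE 0.22, adjusted p = 5.75e-14, limma) in jejunum and by 2.86 (SE 0.23, adjusted p = 5.4e-16) in ileum, a fold of 5.62 and 7.27. It then fell by 1.6 (SE 0.23, adjusted p = 6.92e-08) and 1.17 (SE 0.23, adjusted p = 4.43e-05), to 0.89 (SE 0.22, adjusted p = 0.000536) and 1.69 (SE 0.23, adjusted p = 6.4e-09) above day 8. All 5 probes were called in the same direction for day 55 against day 8 and for day 176 against day 55 in both tissues. For day 176 against day 8 in jejunum, 4 LPL probes were called higher and 1 lower, with values between −0.8 and 1.6, and the dim probe that was lower was well above background in 7 of 11 pools of day 176. With T1 pools only, the jejunum difference of day 176 from day 8 was 0.53 for LPL and 0.76 for SCD, and neither was called.

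SREBF1 fell with age in both tissues. Its jejunum level was between 10.08 and 11.14 at day 8 (median 10.34), between 9.42 and 10 at day 55 (median 9.72) and between 8.82 and 9.69 at day 176 (median 9.19). Its ileum level was between 9.16 and 11.04 (median 10.11), between 8.9 and 9.41 (median 9.09) and between 8.37 and 9.15 (median 8.7, 10 pools, since both probes were flagged on the array of ileum day 176 T3 pool 2). Day 176 did not overlap with day 8 in either tissue. SREBF1 fell at day 55 by 0.74 (SE 0.14, adjusted p = 2.05e-05, limma) in jejunum and by 0.95 (SE 0.15, adjusted p = 1.73e-07) in ileum, and between days 8 and 176 by 1.26 in jejunum (SE 0.14, adjusted p = 7.36e-11) and by 1.36 in ileum (SE 0.15, adjusted p = 5.54e-11). The jejunum difference of day 176 from day 55, −0.52, passed the fold without jejunum day 176 T2 pool 8 (−0.6).

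All of this came from 1 of its 2 probes. A_72_P223967 had a jejunum level of 12.29 (SD 0.63, n = 12) at day 8, 10.51 (SD 0.3, n = 11) at day 55 and 9.69 (SD 0.29, n = 11) at day 176, and in ileum 11.66, 9.54 and 8.93. A_72_P326973 stayed between 8.49 and 8.9 as a mean at all ages and in both tissues. By SREBF1 probe, the difference of day 55 from day 8 in jejunum was −1.76 (SE 0.18, adjusted p = 5.06e-12, limma over probes) for the first and 0.29 (SE 0.14, adjusted p = 0.0956) for the second. In ileum it was −2.13 (SE 0.18, adjusted p = 1.39e-14) and 0.22 (SE 0.15, adjusted p = 0.2). Both probes carry the same transcript accession, and where in the transcript each lies was not determined here.

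**Figure D2:**
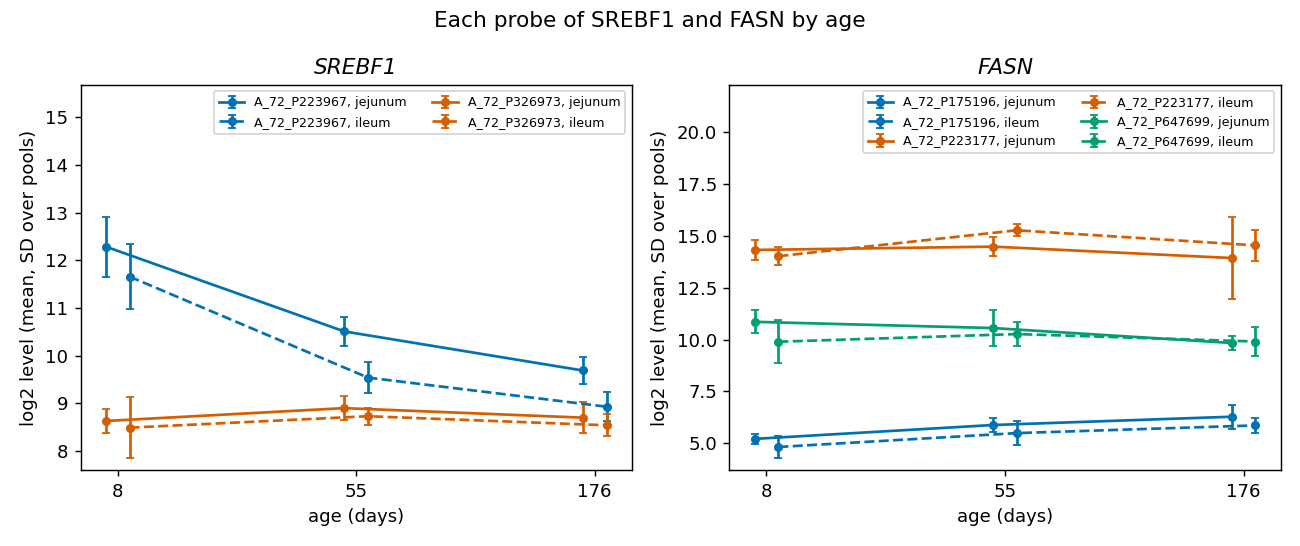
Mean log2 level (vertical axis, error bars SD over 10 to 12 pools) of each probe of SREBF1 (left) and FASN (right) at 8, 55 and 176 days of age (horizontal axis, evenly spaced), in jejunum (solid) and ileum (dashed). One SREBF1 probe falls from 12.29 to 9.69 in jejunum while the other stays between 8.63 and 8.9, and the FASN probes move in different directions in jejunum.

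PPARG rose at different ages in jejunum and ileum. Its jejunum level was between 8.34 and 9.01 at day 8 (median 8.62), between 9.34 and 10.42 at day 55 (median 10.11) and between 8.84 and 10.64 at day 176 (median 9.41). Its ileum level was between 8.05 and 9.28 (median 8.66), between 8.36 and 9.3 (median 8.68) and between 8.44 and 11.38 (median 9.48). At day 55 every jejunum pool was above every jejunum pool of day 8, whereas the ileum pools overlapped. PPARG rose at day 55 by 1.38 (SE 0.21, adjusted p = 1.87e-07, limma) in jejunum, and the difference in ileum was 0.19 (SE 0.21, adjusted p = 0.468). At day 176 it was above day 8 by 0.83 (SE 0.21, adjusted p = 0.000552) in jejunum and by 0.87 (SE 0.21, adjusted p = 0.000466) in ileum. From day 55 to day 176 it rose in ileum by 0.68 (SE 0.21, adjusted p = 0.00928), which was lost without ileum day 176 T2 pool 6 (0.5), the pool at 11.38, or T3 pool 2 (0.56). In jejunum the difference over that time was −0.55 (SE 0.21, adjusted p = 0.0312), below the fold, and it was called without any of 5 pools, at −0.6 to −0.66. The 3 PPARG probes agreed, with 3 of 3 called for day 55 in jejunum and 0 of 3 in ileum.

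**Figure D3:**
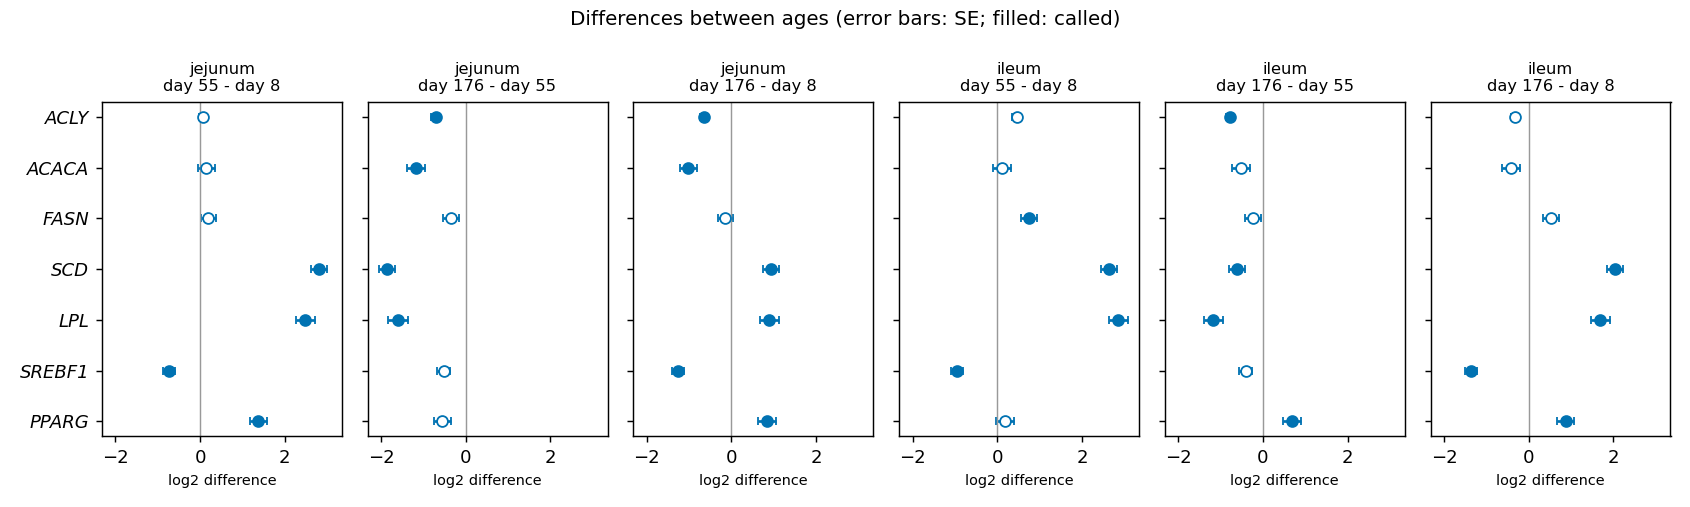
Difference in log2 level between ages (horizontal axis) for each gene, in jejunum and in ileum; error bars are the SE of the fit and filled points are calls. SCD and LPL lie between 2.49 and 2.86 for day 55 against day 8 in both tissues and below 0 for day 176 against day 55, and SREBF1 lies below 0 in all 6 panels.

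Jejunum and ileum differed in few of these genes. At day 8 none of the 7 was called, where 2.8% of all genes were, and 1 of the 7 was below an unadjusted p of 0.05. This was FASN, at −0.55 (SE 0.18, adjusted p = 0.0767, limma, ileum minus jejunum), which was called without ileum day 8 T1 pool 12 (−0.66). At day 55, 2 of 7 were called against 39.6% of all genes, and at day 176, 1 of 7 against 24.2%, so both shares were below the background. At day 55 PPARG was lower in ileum, with a difference of −1.23 (SE 0.14, adjusted p = 7.19e-07), a fold of 2.34, with all 11 jejunum pools above all 11 ileum pools. SREBF1 was lower in ileum too, with a difference of −0.59 (SE 0.1, adjusted p = 6.02e-05), again without overlap, which held for 9.96% of all genes. Its fold of 1.5 lay at the threshold, and 12 of the 22 arrays took the call away when left out, with values between −0.55 and −0.58. The SREBF1 call rested on 1 of its 2 probes, at −0.98 (SE 0.14, adjusted p = 1.08e-05, limma over probes), while the other was at −0.2 (SE 0.09, adjusted p = 0.0701). At day 176 SCD was higher in ileum by 1.21 (SE 0.25, adjusted p = 0.000961), a fold of 2.31, with overlap of the pools. LPL differed by 0.59 at day 176 (SE 0.25, adjusted p = 0.086). Since the tissues shared no slide at day 55, tissue and slide cannot be told apart at that age.

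The age effects themselves were compared between the tissues, as the difference in ileum minus that in jejunum. Of 21 such tests, 4 were called, all in PPARG or SCD. For PPARG from day 8 to day 55 the value was −1.19 (SE 0.3, adjusted p = 0.00117, limma), and 1 of 7 genes was called there against 34.5% of all genes. Its change from day 55 to day 176 was 1.23 (SE 0.3, adjusted p = 0.00138) higher in ileum, and that of SCD 1.25 (SE 0.27, adjusted p = 0.000331) higher, with 2 of 7 called against 30.5% of all genes. The change of SCD from day 8 to day 176 was 1.09 (SE 0.27, adjusted p = 0.00175) higher in ileum, with 1 of 7 called against 20.7%.

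Blood of day 8 was compared with both tissues after normalization over the 35 arrays of that day. This gives lower values than that over the intestine, so levels of the 2 scales are not set against each other. Blood shared no slide with the intestine of day 8, so blood and slide cannot be told apart in these differences. Of the 7 genes, 6 were called against jejunum, 5 lower in blood and 1 higher, where 75.6% of all 33056 genes were called (75.8% of probes). Against ileum the same 6 genes were called in the same direction, with 74% of all genes (74.3% of probes) called. Pools did not overlap for 3 of the 7 genes against either tissue, as for 35.2% of all genes against jejunum and 31.4% against ileum. FASN was lower in blood. Its level was between 4.5 and 7.08 in blood (median 5.75, 12 pools), between 8.2 and 9.38 in jejunum (median 8.79) and between 7.1 and 8.94 in ileum (median 8.37), and FASN pools of blood did not overlap with either tissue. Of its 3 probes, A_72_P175196 was well above background in 0 of 12 blood pools and A_72_P647699 in 2, so the size is given by A_72_P223177, which was measured in all 12. By that probe FASN was at 10.01 in blood and 13.07 in jejunum, 8.35-fold higher in jejunum, and 6.69-fold higher in ileum (adjusted p for the gene 3.35e-13 and 4.52e-11, limma).

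ACLY was lower in blood, between 7.33 and 8.91 (median 8.37) against 9.24 to 9.68 in jejunum and 8.96 to 9.94 in ileum. Its differences were −1.21 (SE 0.15, adjusted p = 1.72e-08, limma) from jejunum and −1.06 (SE 0.15, adjusted p = 3.45e-07) from ileum. The dimmest ACLY probe was well above background in 0 of 12 blood pools, and by the brightest, measured in all, the gene was 1.92-fold higher in jejunum and 1.98-fold higher in ileum. PPARG was between 3.19 and 6.26 in blood (median 5.71) against 7.01 to 7.66 in jejunum and 6.73 to 7.91 in ileum. The brightest PPARG probe was well above background in 2 of 12 blood pools. For it, each blood pool was set to at least the lowest level well above background. PPARG was then 3.19-fold higher in jejunum and 3.21-fold higher in ileum, which are lower limits for that probe (adjusted p for the gene 1.64e-08 and 4.22e-08, limma). Probe A_72_P636927 was well above background in 9 of 12 blood pools and differed less. Its mean was 6.27 in blood, 7.31 in jejunum and 7.21 in ileum. By the mean over probes, the blood pools of neither ACLY nor PPARG overlapped with those of the tissues. LPL was between 1.41 and 5.29 in blood (median 2.36) and between 4.81 and 6.12 in jejunum (median 5.16). No LPL probe exceeded background clearly in more than 1 of 12 blood pools, and by its brightest probe, with blood set to the lowest level well above background, LPL was at least 3.02-fold higher in jejunum and at least 3.16-fold higher in ileum (adjusted p for the gene 2.26e-08 and 1.49e-07). ACACA was not well above background in blood on any probe or array. With quantile normalization, the limit by its brightest probe was 1.13-fold higher in jejunum and 1.08-fold higher in ileum. The adjusted p for the gene was 1.86e-06 and 2.68e-05 (limma). These limits, and those of PPARG and LPL above, were taken with quantile normalization only. With the other scaling of the arrays, described below, neither ACACA call was kept and the sign against ileum turned. The direction of ACACA in blood thus depended on the normalization. SCD was close in all, with a blood range of 6.61 to 7.4 (median 7.07) and a jejunum range of 7.1 to 8.03 (median 7.29), and its difference of −0.33 from jejunum (SE 0.12, adjusted p = 0.0178) stayed below the fold, as did that of −0.42 from ileum (SE 0.13, adjusted p = 0.00363).

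SREBF1 was the only member that was higher in blood, by 0.72 (SE 0.18, adjusted p = 0.000549, limma) than in jejunum and by 1.1 (SE 0.18, adjusted p = 3.39e-06) than in ileum, and this mean joined probes of opposite direction. A_72_P326973 had a level of 11.85 (SD 0.29, n = 12) in blood and 7.29 (SD 0.25, n = 12) in jejunum, a difference of 4.56 (SE 0.17, adjusted p = 1.05e-20, limma over probes). A_72_P223967 had 7.77 (SD 0.46, n = 12) in blood and 10.89 (SD 0.65, n = 12) in jejunum, a difference of −3.12 (SE 0.22, adjusted p = 9.94e-14). The pools of blood and jejunum did not overlap for either SREBF1 probe, with ranges of 11.28 to 12.37 against 6.75 to 7.68 and of 7 to 8.57 against 9.73 to 12.21. The probe that fell with age in intestine was thus the one that was low in blood, and the probe that was flat with age was the one that was high there. For the other called genes the direction was the same in every probe.

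**Figure D4:**
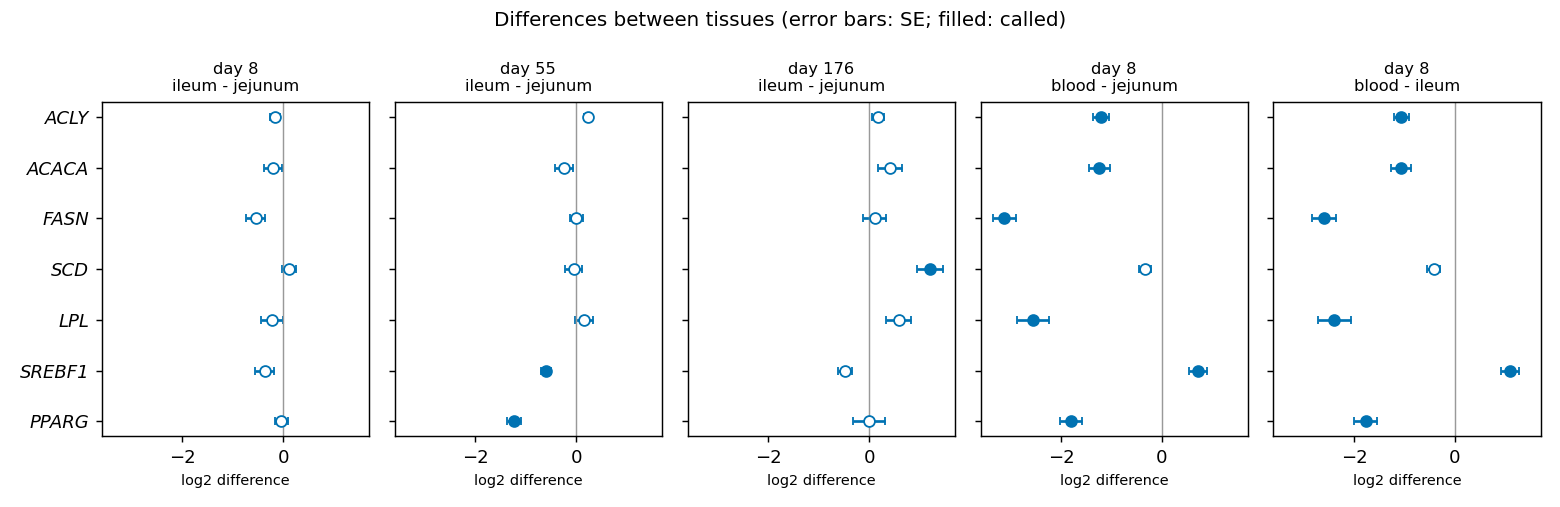
Difference in log2 level (horizontal axis) for each gene between ileum and jejunum at 3 ages and between blood and each tissue at day 8; error bars are the SE of the fit and filled points are calls. At day 8 no ileum point is filled, PPARG and SREBF1 are lower in ileum at day 55 and SCD is higher at day 176, and blood lies below the tissues for all genes but SREBF1.

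Scaling each array to its 75th percentile in place of quantiles moved the median of all genes, from 0.21 to 1.28 for blood against jejunum, from 0.21 to 1.43 for blood against ileum and from 0.01 to 0.5 for jejunum day 176 against day 55. The share of higher genes among all calls then went from 55.1% to 72.7%, from 54.9% to 73.6% and from 54.3% to 82.3%. The median of the other comparisons moved by less, but their shares of higher genes moved as well. For ileum against jejunum the share went from 50.2% to 76.4% at day 55 and from 24.7% to 5.96% at day 8. For ileum day 55 against day 8 it went from 51.5% to 71.9%. With this scaling 8 of 14 blood differences were called in place of 12, and the calls lost were those of ACACA against jejunum (−0.05) and, with the sign turned, against ileum (0.31), and those of ACLY (−0.51) and LPL (−0.55) against ileum. No other called difference between ages or tissues changed its sign. Of all 47 calls of these genes, 40 were kept with this scaling. Between ages the calls went from 13 higher and 13 lower to 14 higher and 11 lower.

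The treatments differed little in these genes. In 21 comparisons between T1, T2 and T3, 7 genes each, 2 of 147 tests were called and 10 had an unadjusted p below 0.05. Both calls were in jejunum of day 55, T3 against T1, where 10.9% of all genes were called. FASN was at 10.83, 10.18, 10.78 and 10.53 in the pools of T3, at 10.91, 9.95 and 10.72 in those of T2 and at 10.03, 9.48, 9.91 and 10.12 in those of T1. Every T3 pool was above every T1 pool. In this comparison 20.2% of all genes had no overlap of the pools, in either direction. The T3 minus T1 difference for FASN was 0.69 (SE 0.21, adjusted p = 0.0392, limma). Its 3 probes did not agree, with 2 higher and 1 lower in T3, values between −0.1 and 1.67 and 1 called. LPL was at 9.73, 9.06, 9.1 and 10.04 in T3, at 9.54, 8.33 and 9.51 in T2 and at 9.11, 7.76, 8.56 and 8.65 in T1, with 1 T1 pool within the range of T3. The T3 minus T1 difference for LPL was 0.96 (SE 0.3, adjusted p = 0.0444). The T3 pools lay on another slide than the T1 pools, so treatment and slide cannot be told apart for both calls. On the slide that T2 and T1 shared, FASN differed by 0.64 (SE 0.28, adjusted p = 0.371) and LPL by 0.61 (SE 0.42, adjusted p = 0.547). The FASN call was lost without any of T1 pools 9, 10 and 11 or T3 pools 1, 3 and 4 of that jejunum. The LPL call was lost without any of its T1 pools 10, 11 and 12 or T3 pools 1 and 4, or any of 6 ileum pools of that day. The lowest values were 0.56 and 0.71, both without T1 pool 10, and neither gene was called with its brightest probe. T2 against T1 for FASN in that jejunum was called only without T2 pool 6 (0.93).

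No member was called in the other 20 comparisons. Of all genes, 2.92% (T2 against T1) and 1.43% (T3 against T2) were called in jejunum at day 55, and 0.075%, 14.9% and 8.88% for T2 against T1, T3 against T1 and T3 against T2 in ileum. At day 8 these shares, in the same order, were 0.0156%, 0% and 0% in jejunum, 0.0969%, 0.9% and 0.0156% in ileum and 0.00693%, 0.00347% and 0% in blood, and at day 176 they were 1.41%, 0% and 0.953% in jejunum and 0.00625%, 0% and 0% in ileum. In ileum at day 55 the T3 pools lay alone on 1 slide, so treatment and slide cannot be told apart there. On their arrays between 42.4% and 52% of probes were well above background, against 62.6% to 73.1% on those of T1 and T2. ACACA had 4 of the 10 low unadjusted p-values, all in ileum and all with T1 as the lower group. At day 8 its ileum level was 5.07, 5.65, 3.9 and 5.41 in T1, 5.65, 5.85 and 5.98 in T2 and 5.64, 5.89, 5.54 and 5.96 in T3. At day 176 it was 5.53, 3.8, 3.2 and 4.81 in T1, 5.64, 6.04, 5.5 and 5.19 in T2 and 5.76, 5.36 and 5.22 in T3. The differences from T1 were between 0.75 and 1.25, with 0.15 as the smallest adjusted p (limma). Leaving out 1 pool took those of day 8 as low as 0.45 for T2 and 0.38 for T3. The 2 probes gave 0.35 and 1.29 for T2 and 0.26 and 1.24 for T3 at day 8. The array of T1 pool 11, at 3.9, had 59% of probes well above background, the lowest of ileum at day 8. T3 at day 8, and both T2 and T3 at day 176, lay on another slide than T1 in ileum. SCD in ileum at day 176 was at 11.1, 10.53, 10.89 and 10.91 in T1 and at 12.22, 12.96, 10.93 and 11.78 in T2, a difference of 1.12 (SE 0.4, adjusted p = 0.578). In blood, normalized apart, SCD was between 4.22 and 4.41 in T2 and between 4.46 and 4.78 in T1, without overlap, as was so for 6.89% of all genes (difference −0.3, SE 0.13, adjusted p = 0.451). For SREBF1 and PPARG no unadjusted p was below 0.05, and their treatment differences were between −0.59 and 0.48. By limma's test of the difference, 0 of 147 treatment effects were called as differing between the tissues or between day 8 and a later day, where 0% to 6.06% of all genes were. Of these and the 21 age tests together, 168 in all, 18 had an unadjusted p below 0.05.

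Other genes of lipid metabolism were counted from 6 lists. For day 55 against day 8, 37% of all genes were called in jejunum and 47.4% in ileum, in either direction. For day 176 against day 55 these shares were 37% and 28.6%. The counts of every list stand against these shares. Of the list of cholesterol synthesis and uptake, 10 of 26 genes were measured. At day 55 against day 8, 5 rose and 1 fell in jejunum (median 0.67, against 0.03 for all genes), and 4 rose and 2 fell in ileum (median 0.47, against 0.11). MSMO1, a sterol oxidase, rose by 1.87 (SE 0.26, adjusted p = 2.33e-08, limma) in jejunum and by 2.02 (SE 0.27, adjusted p = 4e-09) in ileum. From day 55 to day 176, 6 of the 10 fell in jejunum and 4 in ileum and none rose, MSMO1 among them in ileum (−1.11, SE 0.27, adjusted p = 0.000665). Both directions were those of SCD.

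Genes that assemble and store triglycerides had medians below 0 at day 55. Of triglyceride assembly, 12 of 18 genes were measured, and 6 fell, 2 rose and 4 were not called in jejunum (median −0.98, against 0.03 for all genes, of which 37% were called). In ileum 7 fell, 1 rose and 4 were not called (median −1.05, against 0.11 for all genes, of which 47.4% were called). GPD1, which makes glycerol 3-phosphate, fell by 3.7 (SE 0.15, adjusted p = 7.98e-28, limma) in jejunum and by 4.84 (SE 0.15, adjusted p = 2.16e-32) in ileum. DGAT2, which adds the last fatty acid to a triglyceride, fell by 2.75 (SE 0.24, adjusted p = 1.66e-14) and 5.6 (SE 0.24, adjusted p = 1.77e-26). AGPAT4, an acyltransferase of the same pathway, rose by 2.47 (SE 0.17, adjusted p = 4.69e-18) and 2.11 (SE 0.17, adjusted p = 2.16e-15). Of lipid droplet and lipolysis genes, 16 of 19 were measured, and 9 fell, 0 rose and 7 were not called in each tissue (median −0.87 and −1.16). LIPA, the lysosomal acid lipase, fell by 2.84 in jejunum (SE 0.13, adjusted p = 1.04e-24). PNPLA3 rose in jejunum from day 55 to day 176 by 1.21 (SE 0.12, adjusted p = 4.58e-12), whereas ABHD5, an activator of lipolysis, fell by 1.75 (SE 0.16, adjusted p = 2.5e-13). FITM2, of lipid droplet formation, was also called lower, but was well above background in 6 of 11 pools of day 55 and 1 of 11 of day 176.

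Of the partners of LPL and of fatty acid uptake, 7 genes were tested, and 5 fell and 0 rose at day 55 in each tissue (median −0.75 and −1.04). APOC3, an apolipoprotein that inhibits LPL, fell by 5.28 in ileum at day 55 (SE 0.3, adjusted p = 1.39e-21, limma). From then to day 176 APOC3 fell by 2.77 more (SE 0.3, adjusted p = 2.02e-10), and at day 55 its ileum minus jejunum difference was −3.98 (SE 0.34, adjusted p = 2.23e-08). Of fatty acid synthesis, elongation and desaturation, 9 of 33 genes were measured, with 3 higher and 3 lower in jejunum and 4 higher and 4 lower in ileum at day 55. SCD5, the second desaturase, rose by 1.93 (SE 0.33, adjusted p = 1.94e-06) in jejunum and by 2.38 (SE 0.34, adjusted p = 2.45e-08) in ileum, the direction of SCD. At day 176 SCD5 was 2.03 (SE 0.46, adjusted p = 0.0023) higher in ileum than in jejunum, as SCD was. FADS2, a fatty acid desaturase, was called higher in ileum too, and was well above background in 9 of 11 ileum pools and in 0 of 11 jejunum pools. ACSL3, an acyl-CoA synthetase, fell by 3.89 in jejunum (SE 0.17, adjusted p = 3.25e-26) and fell by 5.68 in ileum (SE 0.18, adjusted p = 1.23e-32) between days 8 and 176. Of the regulators, 10 of 27 were measured, with 2 higher and 4 lower in jejunum and 2 higher and 6 lower in ileum at day 55. PPARGC1A, a coactivator of nuclear receptors, rose in jejunum from day 8 to day 176 by 1.7 (SE 0.14, adjusted p = 3.76e-15), and INSIG2 rose in ileum from day 55 to day 176 by 1.04 (SE 0.31, adjusted p = 0.00577). CEBPB was called higher there too, but was well above background in 1 of 11 ileum pools of day 55 and 8 of 11 of day 176.

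**Figure D5:**
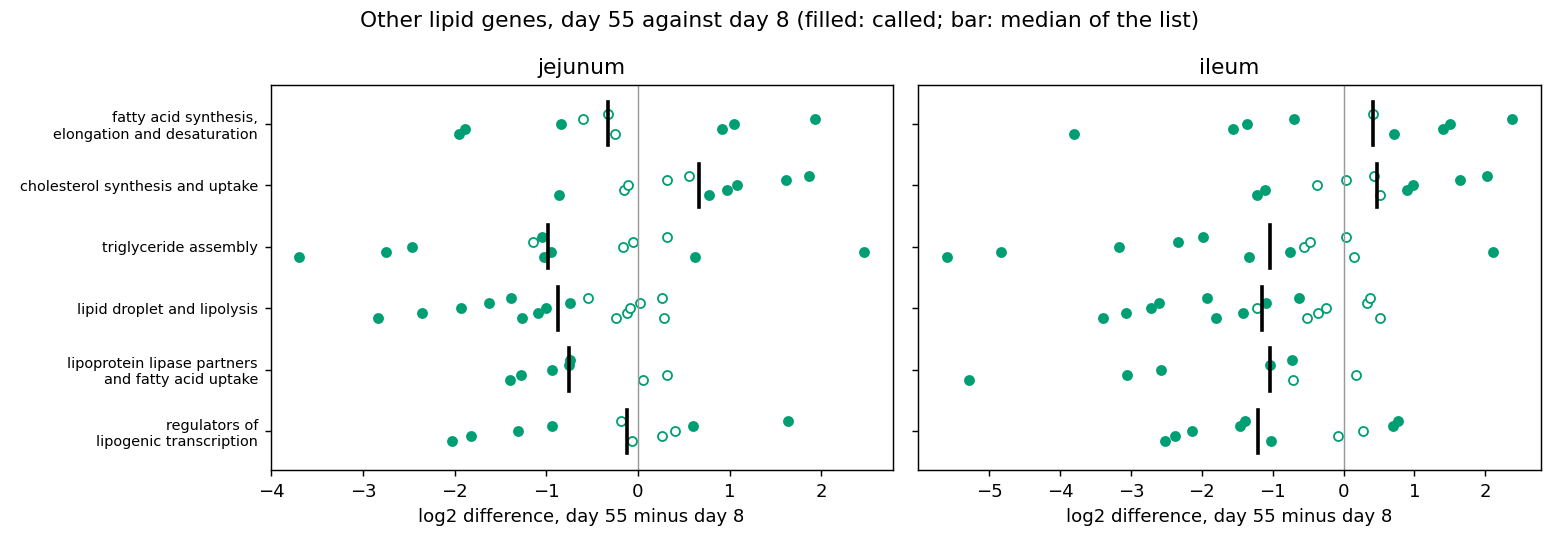
Difference in log2 level of day 55 from day 8 (horizontal axis) for the genes of 6 lists of lipid metabolism in jejunum (left) and ileum (right); each point is a gene, filled where called, and the bar is the median of the list. The median is above 0 for cholesterol synthesis (0.67 and 0.47) and below 0 for triglyceride assembly and lipid droplets in both tissues.

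Between ileum and jejunum at day 8, none of these lists had a gene that was higher in ileum. Those named that were lower were BSCL2 (−0.83, SE 0.18, adjusted p = 0.0206, limma), AGPAT1 (−0.81, SE 0.2, adjusted p = 0.0332) and LPIN3 (−0.7, SE 0.16, adjusted p = 0.0263). At day 55, when 39.6% of all genes were called in either direction, 9 of 12 triglyceride assembly genes were lower in ileum, DGAT2 with a difference of −3.5 (SE 0.22, adjusted p = 9.56e-10). In blood, 8 of these 12 were lower than in jejunum and 2 higher, while 75.6% of all genes were called in either direction. ACSL4, an arachidonate-preferring acyl-CoA synthetase, PNPLA2, the main triglyceride lipase, and PPARD were higher in blood than in jejunum by 3.93 (SE 0.15, adjusted p = 3.33e-20), 2.25 (SE 0.5, adjusted p = 0.000175) and 1.92 (SE 0.2, adjusted p = 4.16e-10). APOC3, DGAT1 and CIDEC had the largest differences downward, for which no size is given, as their signal over background in blood was not examined.

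Markers of other cell types moved with age beside the 7 genes. Of all genes, 37% were called in jejunum and 47.4% in ileum for day 55 against day 8. Of the fat cell markers 11 of 12 were measured, and their summed level had a median of 15.34 in jejunum and 15.16 in ileum at day 8, 13.79 and 13.34 at day 55, and 14.86 and 14.08 at day 176. It was lowest at the age at which SCD and LPL were highest, although GPD1 and CIDEC of this list are also genes of triglyceride handling in the tissue. For day 55 against day 8, 0 of the 11 rose and 6 fell in jejunum, and 1 rose and 5 fell in ileum. The sum is taken over linear levels, so that the brightest genes carry it. The mean of GPD1 went from 14.52 to 10.81 in jejunum and from 14.28 to 9.48 in ileum. That of PCK1 went from 12.68 at day 55 to 14.15 at day 176 in jejunum and from 12.71 to 13.74 in ileum. ADIPOQ, which defines fat cells, did not follow the sum, with a mean of 2.43, 2.71 and 4.58 at days 8, 55 and 176 in jejunum and of 2.66, 3.5 and 3.59 in ileum. It was well above background in 5 of 12, 2 of 11 and 9 of 11 jejunum pools and in 6, 5 and 8 of 11 ileum pools. From day 55 to day 176, 6 of the 11 fat cell markers rose and 2 fell in jejunum, where 37% of all genes were called. In ileum 4 rose and 3 fell, where 28.6% of all genes were called. Of the lymphocyte markers 9 of 12 were measured, and 7 rose in jejunum and 9 in ileum at day 55, with the median of the sum going from 11.38 to 13.39 and from 11.08 to 14.27. Of the macrophage markers 5 of 11 were measured, and 2 rose in jejunum and 3 in ileum at day 55. The median of their sum went from 15.15 to 15.52 in jejunum and from 14.99 to 15.55 in ileum. Of the smooth muscle markers 4 of 9 were measured, and 3 fell in jejunum and 4 in ileum at day 55, with the median of the sum going from 14.76 to 12.87 and from 14.36 to 12.93. Of the neutrophil markers 4 of 8 were measured, and 4 rose in ileum from day 55 to day 176, with the median of the sum going from 7.2 to 9.94. Of these, S100A8 and S100A9 were well above background in 7 and 6 of 11 ileum pools of day 55. In the same comparison 3 of the 5 macrophage markers rose and 0 fell, where 28.6% of all genes were called. The median of the enterocyte sum was 20.13, 20.07 and 19.34 in jejunum at days 8, 55 and 176, and 20.02, 18.74 and 17.95 in ileum. From day 8 to day 176, 2 of the 6 enterocyte markers fell and 0 rose in jejunum, where 48.9% of all genes were called. In ileum 4 fell and 0 rose, where 48.6% were called. The part of these cell types in the changes of the 7 genes was not tested.

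The pattern over the 18 intestine groups was compared with that of the 2287 genes with a symbol that were measured, as a description, since groups share slides and normalization. The gene most like SCD was LPL (Pearson r of 0.96 over 18 group means), and SCD was the one most like LPL. CD86 and HSPH1 followed for both, with r between 0.943 and 0.956. For ACLY they were UBE2D3, OAZ1 and UBB (0.923, 0.91 and 0.899), for ACACA PSMB3, CALR and SELENOT (0.888, 0.847 and 0.821), and for FASN SLC25A6, SLA-8 and ATF4 (0.841, 0.805 and 0.805). SREBF1 was most like SLC6A8 (0.976), ACSL3 (0.966) and CLCN5 (0.964), and PPARG was most like P4HA1 (0.913), PSMB10 (0.908) and COX6A1 (0.9). Among the members themselves, the mean of SREBF1 went against that of SCD (−0.636) and LPL (−0.571), and ACLY and ACACA had an r of 0.732. All of these use the mean over probes. For SREBF1 that mean joins a probe that fell with age and a flat one, and for FASN probes of opposite direction. Likeness by single probe was not examined.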

How the data were processed

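The intensities of the scanner were deposited by the authors for each spot, as Agilent Feature Extraction 10.7.3.1 wrote them per the file headers: the processed signal, background-subtracted and detrended within the array, and the median signals of spot and background, all linear and not normalized between arrays. The flags of spots, 0 or 1, were also used as deposited; the authors' table of log2 values was not used. The labels give 10 ng of RNA per labelling and the methods another amount.

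From the processed signals, spots with the scanner's non-uniformity or population outlier mark were dropped, values under 1 were set to 1, and log2 was taken and quantile normalized over the 67 intestine arrays, the 35 arrays of day 8, or the 12 blood arrays. Probes reaching the 20th percentile in every array of at least 1 group were kept, and probes of a symbol were averaged, giving 31993, 33056 and 28849 genes. A probe missing on an array was left out where the gene had a complete one. Group means were fitted in R 4.3.3 as in limma 3.58.1 (least squares with its moderated variances), with Benjamini-Hochberg adjustment within a comparison, over 18 intestine groups for ages, over each day for tissues and treatments, and over day 8 for blood. This was tested on simulated data. An age or tissue effect is the mean over the 3 treatments. At day 8 the methods give the same piglets for jejunum, ileum and blood of 1 pool number, and the deviations of such jejunum and ileum pools had a mean correlation of 0.177; for days 55 and 176 no source used here says so. The alternatives were 75th percentile scaling, normexp (on the median spot signal, as no mean signal was in the files), other filters, the brightest probe, a variance trend, other sets of arrays in a fit, T1 pools only, slides, blocks and leaving out arrays. The genes and lists were chosen with earlier results of these data known. Named are the 7 members; per comparison of ages or tissues from the list genes called, those with the largest changes (up to 3 a direction); and the 3 genes most alike. The number of arrays limits the precision.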

Additional observations from a re-analysis of the deposited data

Results flagged for a closer look

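In 112 groups of 4 pools, 10 had a pool farther from the others than Dixon's 95% limit, where chance gives about 1 in 20 groups. The gap to the nearest pool, as a share of the group's range, was 0.903 for ACACA in ileum day 55 T3 (pool 1 at 4.66, nearest 5.68), 0.886 for ACACA in jejunum day 55 T1 (pool 11 at 5.02, nearest 6.03) and 0.873 for FASN in jejunum day 8 T3 (pool 3 at 10.63, nearest 10.15). It was 0.929 for ACLY in ileum day 8 T3 (pool 4 at 10.84, nearest 10.71), 0.857 for SREBF1 in ileum day 176 T2 (pool 6 at 9.15, nearest 8.73) and 0.972 for LPL in jejunum day 8 T3 (pool 1 at 7.43, nearest 6.39). In blood it was 0.842 for FASN in T2 (pool 5) and 0.833 in T1 (pool 10), and 0.93 for LPL in T3 (pool 1) and 0.944 in T2 (pool 8), at LPL levels that were mostly not well above background.

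By the test of the difference, the age effect in ileum minus that in jejunum was −1.19 for PPARG from day 8 to day 55 and 1.23 from day 55 to day 176. For SCD it was 1.25 from day 55 to day 176 and 1.09 from day 8 to day 176.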

How the results depend on the processing

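Of 26 calls between ages, other settings gave 20 to 28, and 14 where each probe had to pass alone. Of 3 calls between jejunum and ileum, T1 pools only gave 1 and the brightest probe 5. Of 2 calls between treatments, 1 stayed with no filter and 1 with normexp, and 0 were made with all intestine arrays in 1 fit, with each tissue fitted alone, by the brightest probe or with each probe alone. Within a slide 0 were made, where the comparison of both calls, on separate slides, could not be fitted. Of 4 called differences of effect, the replicate block gave 7, adding FASN for day 55 against day 8 (0.61) and FASN and LPL for day 176 against day 8 (0.71 and 0.88). It also added FASN in ileum for day 176 against day 8 (0.59) and LPL between tissues at day 176 (0.78), and changed no other call. At days 55 and 176 the pools share only a number as far as stated, with a mean correlation of 0.0636 and 0.0465 and 2 of 11 and 2 of 10 pairs over 0.1. Sow sets were a block at day 8 alone, where no treatment call was made with or without it. The 12 calls of blood became 8 with 75th percentile scaling. Leaving out 1 pool gave 25 to 28, 2 to 4, 0 to 3, 4 to 7 and 12 calls for ages, tissues, treatments, differences and blood. Probe-wise testing and leaving out jejunum day 176 T2 pool 8 and jejunum day 8 T2 pool 8 were chosen after seeing the data.

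Signs turned almost only in differences that were not called. With T1 pools only, ileum minus jejunum at day 176 was −0.1 for ACACA, −0.08 for ACLY and −0.33 for FASN, at day 55 0.05 for SCD and at day 8 0.04 for PPARG. Jejunum day 55 minus day 8 was −0.13 for ACLY and −0.37 for FASN, and day 176 minus day 55 was 0.3 for FASN. With the brightest probe, ileum minus jejunum was −0.09 for ACACA and −0.01 for ACLY at day 176, 0.02 for ACACA and −0.16 for LPL at day 55, and 0.04 for ACLY, 0.06 for LPL and 0.01 for PPARG at day 8. SCD in blood was 0.15 against both tissues. With 75th percentile scaling ACACA was 0.38 for ileum minus jejunum at day 55 and −0.32 for jejunum day 55 minus day 8. Called differences that turned were SREBF1 in blood with the brightest probe, −3.12 against jejunum and −2.5 against ileum, and ACACA in blood against ileum, 0.31 with 75th percentile scaling and 0.17 with T1 pools only. Leaving out 1 pool, ACACA ileum day 55 minus day 8 ranged from −0.01 to 0.2, FASN jejunum day 176 minus day 8 from −0.29 to 0.08, and ileum minus jejunum from −0.11 to 0.26 for FASN at day 176, from −0.11 to 0.02 for PPARG at day 8 and from −0.19 to 0.06 for SCD at day 55. Without jejunum day 176 T2 pool 8 and jejunum day 8 T2 pool 8, the latter with a median correlation of 0.952 and 6 arrays lower, FASN was −0.11 for ileum minus jejunum at day 176 and 0.05 for jejunum day 176 minus day 8. Except for the probes, which differ by construction, the cause was not tested. Signal over background limits ACACA and LPL in blood, which were mostly not well above background there. It also limits single probes of FASN, SCD, ACLY and PPARG in blood.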
